A study of Mus musculus with 31 samples.

Results

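The genes of oxygen sensing by HIF1 and of glycolysis were examined in RNA-seq count tables of bulk temporo-occipital cortex and of CD11b+ microglia of 13-month-old mice. The list holds 32 genes, taken by gene name, and all 32 were found among the 55401 genes of the tables. The name Aldoa is carried by 2 gene entries, of which the second had 566 counts in all 31 libraries together, so that Aldoa below means the first. Every one of the 32 genes passed the minimum of 10 counts in at least 3 libraries in each of the comparisons.

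Female CD11b+ cells came from mice without the transgene and with wild-type PLCγ2 (A-/Pwt/wt, n = 7), from APP/PS1 mice (A+/Pwt/wt, n = 4) and from APP/PS1 mice homozygous for the PLCγ2-P522R knock-in (A+/Pki/ki, n = 4). Male CD11b+ cells came from mice without the transgene, with wild-type PLCγ2 (WT, A-/Pwt/wt, n = 3) or with the homozygous knock-in (KI, A-/Pki/ki, n = 4). Female cortex came from A-/Pwt/wt (n = 1), A+/Pwt/wt (n = 4) and A+/Pki/ki (n = 4) mice. All mice were on a C57BL/6J background, and A+ denotes APPswe and PS1dE9 expressed from the mouse prion protein promoter, which is not a microglial promoter. The knock-in was made by CRISPR/Cas9 and is present in every cell of the mouse. CD11b+ cells were taken from dissociated whole brain with magnetic beads, and CD11b is also carried by border macrophages and neutrophils. CD11b+ cells of female KI mice without the transgene were not analysed here.

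HIF1 is a transcription factor of an alpha subunit, encoded by Hif1a, and a constant partner, encoded by Arnt. When oxygen is plentiful, prolyl hydroxylases (Egln1, Egln2, Egln3) mark the alpha subunit and the VHL ubiquitin ligase (Vhl) has it degraded, so that the control is largely at the protein level and transcript levels do not measure HIF1 activity. Stabilized HIF1 induces glucose transporters, most glycolytic enzymes, lactate dehydrogenase A, Pdk1, Bnip3 and the hydroxylase Egln3 itself. In the brain, neurons and astrocytes use their own isoforms of several glycolytic enzymes, and activated macrophages and microglia are known for a shift towards glycolysis.

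CD11b+ libraries held 16229831 to 25118180 counts and cortex libraries 25226544 to 43129427 counts. The CD11b+ label was checked against 10 microglia markers, all of which were higher in CD11b+ cells than in cortex of A+/Pwt/wt mice, with a mean log2 CPM of the list (its score) of 9.75 to 10.8 against 4.70 to 5.74. Markers of other cells were also present, and no marker of any list was at 0 in a CD11b+ library. The score of 12 neuron markers was 2.92 to 7.23 in CD11b+ libraries and 9.27 to 9.39 in cortex. That of 9 astrocyte markers was 4.86 to 7.69 against 7.70 to 8.17. The oligodendrocyte score was 6.41 to 9.67 in CD11b+ libraries and 7.85 to 8.50 in cortex, so that the ranges overlapped. The neutrophil score was 1.98 to 7.41 in CD11b+ libraries and -3.04 to -1.97 in cortex. Results are also given without the 5 CD11b+ libraries of lowest microglia score (mice 223, 331, 335, 136 and 139; scores 9.75 to 10.16), which no gap parts from the next library at 10.22. The library of mouse 223 had 24.5% of its counts in mitochondrial genes, the highest share of all. The column names of the tables carry a tag that is b1 for all males, b2 for all female A+ and b3 for all female A- CD11b+ libraries, with no stated meaning, so that the tag and the transgene cannot be told apart in females. Mouse number 236 is given for an A-/Pwt/wt CD11b+ library and an A+/Pwt/wt cortex library, and both labels were used as they stand. In bulk samples, fewer cells of a type and less RNA per cell cannot be told apart.

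The first question was whether the list differed between microglia of APP/PS1 mice and of mice without the transgene. Hif1a and Egln3 rose in A+/Pwt/wt compared with A-/Pwt/wt CD11b+ microglia, by 2.93-fold and 8.34-fold, and no gene of the list fell. Thus 2 of 32 genes (6.25%) were called higher by edgeR at an adjusted p of 0.05, against 1.01% of all genes tested, and 0 of 32 were called lower, against 0.282%. In A+/Pki/ki compared with the same A-/Pwt/wt libraries, 4 of 32 genes (12.5%) rose, against 1.35% of all genes, namely Egln3, Hif1a, Slc16a3 and Pkm, and 0 fell, against 0.287%. Both comparisons use the same 7 control libraries, so their values are given side by side and are not independent of each other.

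The promoters of these 4 genes are shown because they are the members called in this comparison and because HIF1 is known to bind sites with the core letters ACGTG or GCGTG. RefSeq transcription starts on GRCm38.p6 gave 45 windows, from 250 bases before to 50 bases after the start, for 31 of the 32 genes. ACGTG or GCGTG on either strand was found in 36 of the 45 windows (80.0%) and in at least 1 window of 27 of the 31 genes (87.1%). Of all 32851 windows 14380 (43.8%) and of all 27025 genes 12628 (46.7%) held a match. Such a match is a description of the letters and not a binding site. The 250 bases before the start are printed with matches on either strand in capitals, 5′ to 3′ on the strand of the gene.
Hif1a, chr12:73907617-73907866, plus strand: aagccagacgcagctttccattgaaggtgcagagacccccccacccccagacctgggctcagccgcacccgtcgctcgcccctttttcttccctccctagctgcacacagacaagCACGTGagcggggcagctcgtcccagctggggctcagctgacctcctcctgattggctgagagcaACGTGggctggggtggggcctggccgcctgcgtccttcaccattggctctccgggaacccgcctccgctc
Egln3, chr12:54203875-54204124, minus strand: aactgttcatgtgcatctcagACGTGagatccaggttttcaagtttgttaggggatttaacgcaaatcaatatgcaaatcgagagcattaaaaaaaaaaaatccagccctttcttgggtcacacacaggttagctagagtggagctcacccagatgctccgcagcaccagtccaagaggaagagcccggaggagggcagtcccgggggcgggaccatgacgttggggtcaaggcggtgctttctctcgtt
Slc16a3, chr11:120948817-120949066, plus strand: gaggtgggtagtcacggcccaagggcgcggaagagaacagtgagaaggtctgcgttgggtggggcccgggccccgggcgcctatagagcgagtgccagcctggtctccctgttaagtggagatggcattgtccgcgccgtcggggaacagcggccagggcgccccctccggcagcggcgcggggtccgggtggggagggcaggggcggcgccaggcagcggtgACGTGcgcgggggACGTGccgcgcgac
Pkm, the downstream of 2 starts, chr9:59656977-59657226, plus strand: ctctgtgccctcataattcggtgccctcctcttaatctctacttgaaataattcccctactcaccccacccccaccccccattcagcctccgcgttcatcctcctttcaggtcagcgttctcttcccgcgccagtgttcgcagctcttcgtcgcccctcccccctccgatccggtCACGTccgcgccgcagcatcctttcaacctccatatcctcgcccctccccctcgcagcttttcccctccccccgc
The CACGTG of Hif1a reads as the motif on both strands and counts as 2 of its 3 matches. The window of the upstream start of Pkm held no match.

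Hif1a (chromosome 12, 73901375 to 73947530 on GRCm38) encodes the oxygen-regulated subunit. In CPM (a gene's counts relative to the library total, on the CPM scale after TMM scaling) it ranged from 81.6 to 98.5 with a median of 89.5 in the 7 A-/Pwt/wt libraries, and was 183, 277, 279 and 322 in A+/Pwt/wt and 281, 186, 392 and 311 in A+/Pki/ki. Every A+ library was above every A- library, and the lowest A+ values, 183 and 186 CPM, were those of mice 331 and 335, whose microglia scores were the lowest among A+ mice. The log2 fold change (log2FC) was 1.55 ± 0.144 (SE, adjusted p = 0.000156, edgeR) in A+/Pwt/wt and 1.70 ± 0.163 (adjusted p = 0.000388) in A+/Pki/ki. Exons of Hif1a overlap those of Gm49321 by 148 bases on the same strand and those of Gm15283 by 330 bases on the other, and the counts were made without strand. In the males Hif1a was 90.2, 88.3 and 86.7 CPM in WT and 88.7, 72.9, 68.3 and 80.7 CPM in KI. In cortex it was 62.1 CPM in the A-/Pwt/wt library, 62.6, 72.1, 62.0 and 73.3 CPM in A+/Pwt/wt and 74.3, 66.9, 69.4 and 62.0 CPM in A+/Pki/ki. The high level in A+ CD11b+ libraries was thus not seen in A+ cortex libraries, in which the microglia score was 5.41 to 5.74.

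Egln3 (chromosome 12, 54178981 to 54203860), the hydroxylase that is itself strongly induced by hypoxia, ranged from 1.94 to 4.21 CPM with a median of 2.78 in A-/Pwt/wt, and was 16.6, 26.9, 28.4 and 32.7 CPM in A+/Pwt/wt and 27.2, 20.9, 42.6 and 37.1 CPM in A+/Pki/ki. The groups did not overlap, and again the lowest library of each A+ group was that of lowest microglia score. The log2FC was 3.06 ± 0.239 (adjusted p = 4.19e-05, edgeR) in A+/Pwt/wt and 3.35 ± 0.251 (adjusted p = 4.52e-05) in A+/Pki/ki. Male libraries held 4.34, 3.55 and 4.21 CPM in WT and 4.82, 1.62, 1.75 and 3.82 CPM in KI. Cortex held 13.8 CPM in A-/Pwt/wt, 13.8 to 18.01 in A+/Pwt/wt and 14.8 to 16.1 in A+/Pki/ki, so that Egln3 was above the A- microglial level in all 9 cortex libraries, with or without the transgene. Hif1a and Egln3 stayed past the threshold in each of the other scalings, filters, tools and fits and without each single library.

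**Figure D1:**
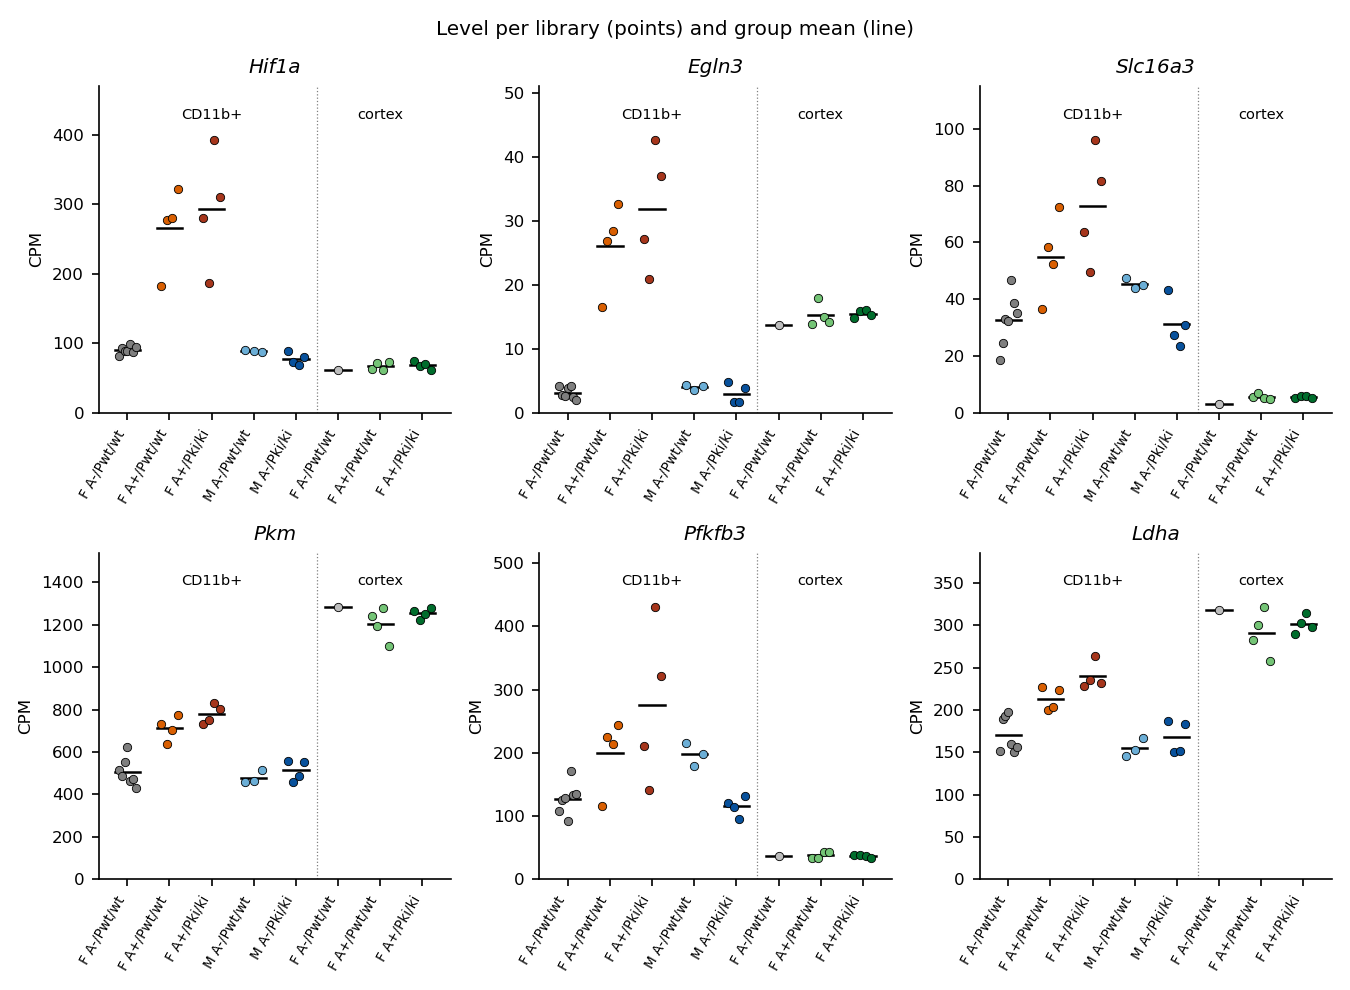
CPM of Hif1a, Egln3, Slc16a3, Pkm, Pfkfb3 and Ldha (y axes, linear, from 0) in the 22 CD11b+ and 9 cortex libraries by group (x axes, F female, M male). Points are libraries and lines are group means. Hif1a and Egln3 of all 8 A+ CD11b+ libraries lie above those of all A- CD11b+ libraries, whereas Pfkfb3 of the A+ groups overlaps A-/Pwt/wt.

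The other genes of oxygen sensing did not pass the test in either comparison. Arnt, the constant partner, had a log2FC of 0.01 and 0.19 in A+/Pwt/wt and A+/Pki/ki, and Vhl of -0.04 and 0.14. Egln1, the main oxygen sensor, had -0.09 and -0.23, and Egln2, a hydroxylase not induced by hypoxia, had -0.44 (adjusted p = 0.312) and -0.55 (adjusted p = 0.222). Without the libraries of mice 223 and 335, Egln2 was called lower in A+/Pki/ki. The score of the 6 oxygen sensing genes was 5.33 to 5.76 in A-/Pwt/wt, 6.03 to 6.33 in A+/Pwt/wt and 6.18 to 6.36 in A+/Pki/ki. This score includes Hif1a and Egln3, and none was computed without them. It therefore does not show a rise of the set as a whole.

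Among transporters, Slc16a3 (chromosome 11, 120948480 to 120960868), the lactate exporter MCT4, ranged from 18.7 to 46.7 CPM with a median of 33.01 in A-/Pwt/wt. It was 36.7, 58.3, 52.5 and 72.7 CPM in A+/Pwt/wt, which overlaps the A- range, and 63.7, 49.7, 96.0 and 81.8 CPM in A+/Pki/ki, which does not. The log2FC was 0.75 ± 0.240 (adjusted p = 0.206, edgeR) in A+/Pwt/wt and 1.15 ± 0.238 (adjusted p = 0.0340) in A+/Pki/ki. The call in A+/Pki/ki was lost with scaling by library size only (2 of 32 genes then called higher) and without any one of 8 of the 11 libraries. Slc2a1 (GLUT1), the glucose transporter of endothelium and glia, had a log2FC of -0.29 and -0.62, Slc2a3 (GLUT3, the neuronal glucose transporter) of 0.09 and 0.39, and Slc16a1 (MCT1) of 0.07 and -0.13, none of which passed the test. Slc2a1 was called lower in A+/Pki/ki without mice 223 and 335, and the endothelial and mural score was 7.00 to 7.81 in A-/Pwt/wt and 6.13 to 7.50 in A+/Pki/ki, the part of which was not tested.

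Of the 9 genes from hexokinase to phosphofructokinase, 0 passed the test in either comparison. Pfkfb3, which makes the strongest activator of phosphofructokinase, ranged from 92.5 to 172 CPM with a median of 128 in A-/Pwt/wt, and was 117, 226, 213 and 243 CPM in A+/Pwt/wt and 211, 142, 431 and 321 CPM in A+/Pki/ki. The library of lowest microglia score was within the A- range in both A+ groups, and the other 3 were above it. The log2FC was 0.65 (95% CI 0.20 to 1.10, adjusted p = 0.206) and 1.12 (95% CI 0.56 to 1.68, adjusted p = 0.0516). Without mice 223 and 331, Pfkfb3 and Slc16a3 were called higher in A+/Pwt/wt besides Hif1a and Egln3, giving 4 of 32, with 2.8% of all genes called. In A+/Pki/ki, Pfkfb3 was called higher with DESeq2 size factors, with the filterByExpr filter of edgeR, by DESeq2 and in the fit of all groups. Hk2, the inducible hexokinase, had a log2FC of -0.13 and 0.17, and the myeloid hexokinase Hk3 of -0.28 and 0.12. The other 6, Hk1, Gpi1, Pfkl, Pfkm, Pfkp and Pfkfb4, ranged from -0.11 to 0.32 in A+/Pwt/wt and from -0.84 to 0.39 in A+/Pki/ki.

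From aldolase to pyruvate kinase, Pkm, the last enzyme of glycolysis (chromosome 9, 59656368 to 59679375), ranged from 432 to 624 CPM with a median of 486 in A-/Pwt/wt. It was 732, 636, 702 and 775 CPM in A+/Pwt/wt and 732, 749, 832 and 801 CPM in A+/Pki/ki, all above the A- libraries. Its log2FC was 0.49 ± 0.130 (adjusted p = 0.114, edgeR) and 0.63 ± 0.131 (adjusted p = 0.0357), so that only the second passed the test. That call was lost with scaling by library size only, with no filter on low counts, and without any one of 8 of the 11 libraries, with log2FC of 0.59 to 0.69. Exons of Pkm overlap those of Gm49759 by 767 bases on the same strand, and the counts do not separate the M1 and M2 forms. Tpi1, Pgk1, Gapdh, Aldoa and Pgam1 had log2FC of 0.53, 0.46, 0.28, 0.30 and 0.29 in A+/Pwt/wt and of 0.59, 0.52, 0.49, 0.44 and 0.31 in A+/Pki/ki, all positive and none past the threshold. Eno1 had 0.00 and 0.08. The isoforms Aldoc (of astrocytes) and Eno2 (of neurons) had wide intervals, for Eno2 from -1.12 to 1.14 in A+/Pwt/wt and from -2.31 to 0.87 in A+/Pki/ki.

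At the fate of pyruvate, Ldha, which makes lactate, ranged from 151 to 197 CPM with a median of 159.5 in A-/Pwt/wt and was 227, 200.2, 203 and 223 CPM in A+/Pwt/wt and 229, 235, 263 and 232 CPM in A+/Pki/ki. The groups did not overlap, yet the log2FC of 0.32 (95% CI 0.05 to 0.59, adjusted p = 0.341) and 0.49 (95% CI 0.23 to 0.76, adjusted p = 0.0714) did not pass the test. Ldhb, which favours the reverse reaction, had log2FC of -0.36 and -0.24. Pdk1, a kinase that inhibits pyruvate dehydrogenase, had 0.27 and 0.52, and the mitophagy receptor Bnip3 had 0.24 and 0.39. In A+/Pki/ki without mice 223 and 335, 8 genes were called higher (Egln3, Hif1a, Pfkfb3, Slc16a3, Pkm, Ldha, Pdk1 and Gapdh) and 2 lower (Egln2 and Slc2a1), at 7.37% of all genes called in either direction. The library of mouse 335 alone decided most of this, since 7 genes were called higher and 2 lower without it.

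Across the list, 4 of 32 genes lay above all A- libraries without overlap in A+/Pwt/wt (Hif1a, Egln3, Pkm and Ldha), against 2.08% of all genes, and 5 of 32 in A+/Pki/ki (also Slc16a3), against 2.52%. The median log2FC of the 32 genes was 0.11 in A+/Pwt/wt and 0.22 in A+/Pki/ki, beside -0.03 and -0.01 over all genes tested. Genes with a positive log2FC numbered 20 and 22 of 32, against 44.6% and 48.4% of all genes tested. In the same comparisons 11 and 13 of 15 markers of disease-associated microglia rose, with a score of 6.40 to 7.44 in A-/Pwt/wt, 8.76 to 9.58 in A+/Pwt/wt and 8.92 to 9.63 in A+/Pki/ki. No neuron, astrocyte, oligodendrocyte, endothelial, neutrophil or microglia marker was called in either comparison. Of 6 border macrophage markers, 2 (Pf4 and Cd163) fell in A+/Pwt/wt and 0 in A+/Pki/ki. In A+/Pwt/wt 5 of the 6 lay below all A- libraries. The median log2FC of neuron, astrocyte and neutrophil markers was 0.01, 0.06 and -1.03 in A+/Pwt/wt and -0.87, -0.56 and 1.55 in A+/Pki/ki. The neuron score was 3.89 to 7.23 in A-/Pwt/wt, and 3.27 and 2.92 in A+/Pki/ki mice 394 and 405. Mice 244 and 335 were within the A- range. Egln3, Slc16a3 and Pfkfb3 of mice 394 and 405 were the highest of the A+ CD11b+ libraries. The part of other cells in these values was not tested.

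Of 28 further HIF targets and regulators, 1 was called higher and 0 lower in each comparison. Of all genes, 1.01% were called higher in A+/Pwt/wt and 1.35% in A+/Pki/ki. The median log2FC of these 28 genes was 0.01 in both comparisons. Of 34 neighbouring carbohydrate genes, 31 were tested and 0 were called in A+/Pwt/wt, and 2 rose in A+/Pki/ki, the hexose transporter Slc2a6 (log2FC 1.40) and the glycolysis brake Tigar (log2FC 0.81). Of 7 genes of the pentose phosphate pathway, which branches off after hexokinase, 0 were called in A+/Pwt/wt and 1, the entry enzyme G6pdx, rose in A+/Pki/ki (log2FC 0.45).

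**Figure D2:**
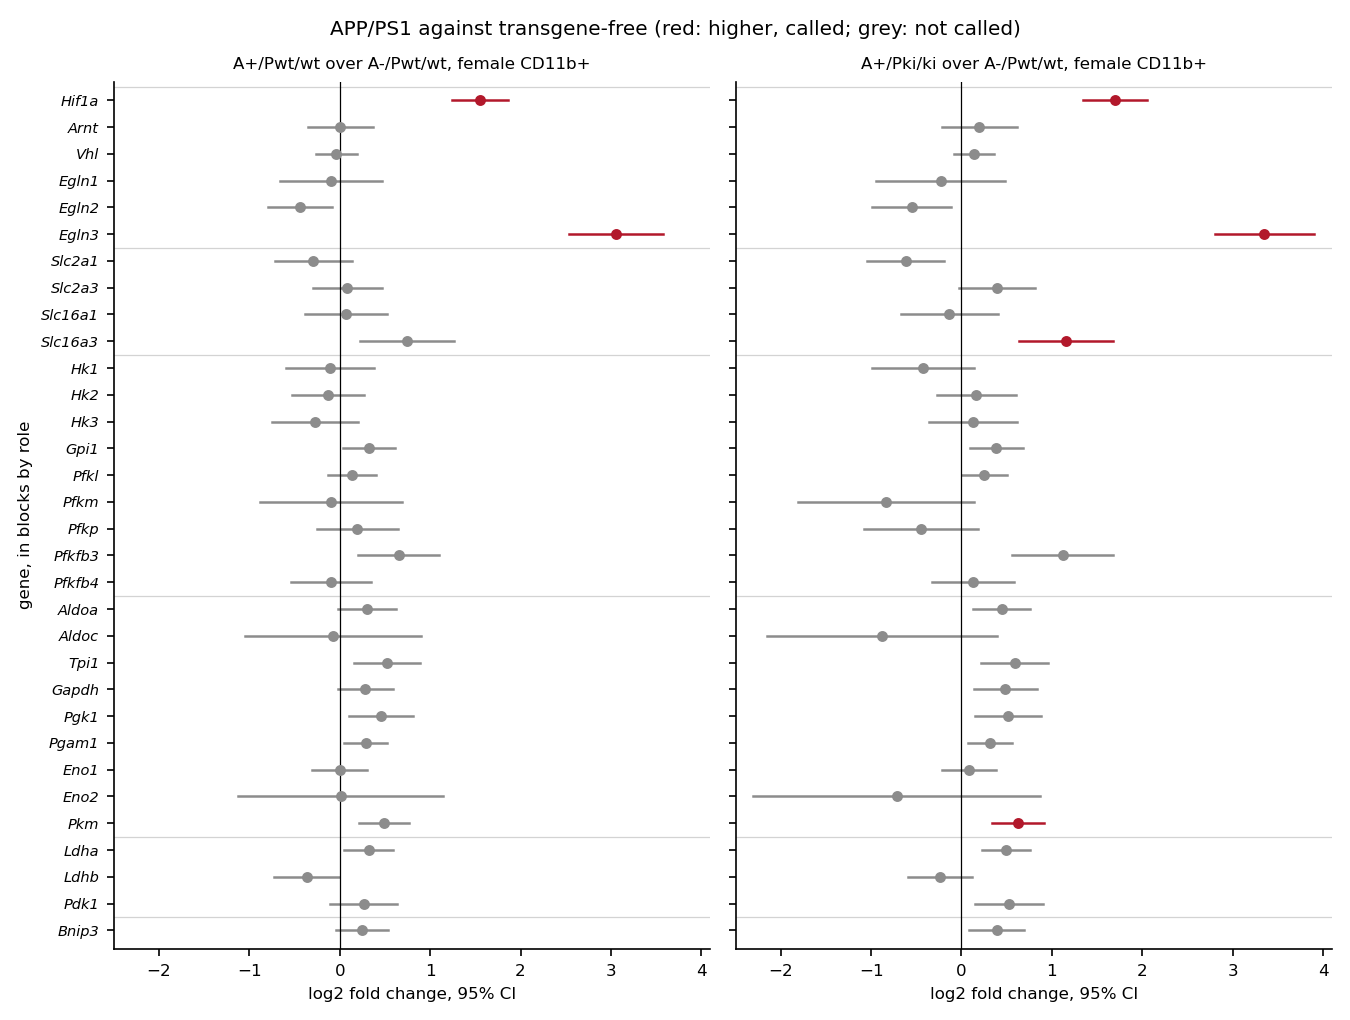
Log2 fold change (x axes) of the 32 genes, ordered in blocks by role (y axis), in female CD11b+ microglia of A+/Pwt/wt (left) and A+/Pki/ki (right) over A-/Pwt/wt mice. Points are edgeR estimates, bars their 95% intervals, red marks genes called higher and grey those not called. Hif1a and Egln3 stand at 1.55 and 3.06 on the left and 1.70 and 3.35 on the right.

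The next question was whether the knock-in altered the list in APP/PS1 mice. In CD11b+ microglia 0 of 32 genes were called between A+/Pki/ki and A+/Pwt/wt, against 0.0% of all 17039 genes, and 0 of 32 had an unadjusted p under 0.05 in edgeR, against 3.37% of all genes. DESeq2 called 0 of 32 as well, against 0.0158% of all genes. Hif1a had a log2FC of 0.10 (95% CI -0.45 to 0.65) and Egln3 of 0.25 (95% CI -0.34 to 0.84). The 3 smallest p-values were those of Hk3, Pfkp and Slc2a3, all with an adjusted p of 0.853. Hk3 was 69.2, 101, 107 and 114 CPM in A+/Pwt/wt and 119, 89.0, 148 and 158 CPM in A+/Pki/ki (log2FC 0.35). Pfkp, the platelet-type phosphofructokinase, was 59.2, 23.3, 44.2 and 37.4 CPM against 28.2, 46.3, 15.4 and 14.6 CPM (log2FC -0.68). Slc2a3 was 13.8, 14.0, 14.8 and 17.96 CPM against 15.1, 24.4, 16.3 and 18.8 CPM (log2FC 0.27). The groups overlapped for all 3 genes. Of the 32 genes, 1 (Ldha) lay above all A+/Pwt/wt libraries without overlap, against 1.68% of all genes. Below them lay 0, against 0.745%. The 95% intervals of 26 of 32 genes lay within -1 and 1, so that a 2-fold change was outside the interval for those but not for the other 6, and the intervals of 13 genes lay within -0.5 and 0.5.

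In cortex 0 of 32 genes were called between A+/Pki/ki and A+/Pwt/wt, against 0.0% of all 18640 genes. DESeq2 also called 0 of 32, against 0.044% of all genes, and 2 of 32 had an unadjusted p under 0.05 in edgeR, against 2.76% of all genes. The intervals were narrower than in CD11b+ cells, with 30 of 32 within -0.5 and 0.5. The 3 smallest p-values were those of Slc2a1, Egln1 and Slc16a1, each with an adjusted p of 1.00. Slc2a1 was 58.3, 74.1, 54.3 and 60.4 CPM in A+/Pwt/wt and 73.2, 73.9, 92.3 and 65.6 CPM in A+/Pki/ki (log2FC 0.29, 95% CI 0.06 to 0.53). Egln1 was 81.7, 75.8, 75.6 and 74.4 CPM against 83.4, 84.5, 91.3 and 83.2 CPM (log2FC 0.14, 95% CI 0.01 to 0.27). Slc16a1 was 38.9, 37.1, 35.2 and 33.1 CPM against 40.8, 40.0, 47.5 and 34.2 CPM (log2FC 0.16). Of the 32 genes, 1 (Egln1) lay above all A+/Pwt/wt libraries without overlap, against 1.15% of all genes. Below them lay 0, against 0.751%. None of the 28 HIF targets, the neighbouring carbohydrate genes or the pentose phosphate genes was called for the knock-in in A+ mice in either tissue.

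In males without the transgene the knock-in comparison gave 11 of 32 genes. Called higher in KI were 6 genes (18.8%), against 11.1% of all genes, and called lower were 5 (15.6%), against 5.26%. The higher genes were Eno2, Aldoc, Pfkm, Egln1, Hk1 and Egln2 and the lower genes Pfkfb3, Pfkfb4, Hk2, Hk3 and Arnt. Without overlap between the groups, 10 of 32 genes were above WT, against 15.3% of all genes, and 6 were below, against 15.4%. Markers of other cells moved with the knock-in: 12 of 12 neuron, 9 of 9 astrocyte, 5 of 8 oligodendrocyte and 3 of 9 endothelial and mural markers were called higher, and 0 border macrophage or neutrophil markers were called. The neuron score was 3.04 to 3.57 in WT and 4.53 to 5.75 in KI, and the mitochondrial share of counts 3.97 to 5.02% and 7.40 to 12.8%. The microglia score was 10.7 to 10.8 in WT and 10.1 to 10.8 in KI, with 1 of 10 markers, Sall1, called lower. The part of these cells in the values that follow was not tested.

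Eno2, neuron-specific enolase, was 11.3, 9.34 and 9.44 CPM in WT and 28.2, 36.2, 45.4 and 22.1 CPM in KI, a log2FC of 1.71 ± 0.234 (SE, adjusted p = 0.00383, edgeR). Aldoc was 130.4, 142 and 177 CPM in WT and 309, 492, 574 and 366 CPM in KI (log2FC 1.53 ± 0.218, adjusted p = 0.00394). Pfkm, the muscle-type phosphofructokinase, was 39.0, 40.3 and 47.1 CPM in WT and 58.5, 91.8, 114 and 83.6 CPM in KI (log2FC 1.04 ± 0.195, adjusted p = 0.00948). In all 3 the groups did not overlap. Exons of Pfkm overlap those of Gm26513 by 341 bases on the same strand.

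Smaller rises were those of Egln1, Hk1 and Egln2. Egln1 was 89.3, 91.1 and 87.2 CPM in WT and 124, 149, 167 and 99.2 CPM in KI (log2FC 0.59, adjusted p = 0.0353). Hk1, the constitutive hexokinase of brain, was 76.9, 78.8 and 83.5 CPM against 84.0, 118, 125 and 113 CPM (log2FC 0.46, adjusted p = 0.0440). Egln2 was 49.6, 52.2 and 54.0 CPM against 70.1, 67.3, 74.7 and 61.7 CPM (log2FC 0.40, adjusted p = 0.0246). With scaling by library size only, Hk1 and Egln2 were no longer called.

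Pfkfb3 was the clearest fall, at 215, 179.6 and 198 CPM in WT and 121, 115, 95.9 and 131 CPM in KI, a log2FC of -0.77 ± 0.124 (adjusted p = 0.00591, edgeR). Its paralog Pfkfb4 was 67.2, 68.2 and 67.2 CPM against 58.2, 48.1, 40.5 and 47.4 CPM (log2FC -0.48, adjusted p = 0.0308). Hk2 was 269, 265 and 267 CPM against 221, 168, 173 and 213 CPM (log2FC -0.46, adjusted p = 0.0323). Hk3 was 140.4, 151 and 150.0 CPM against 127, 113, 102 and 96.2 CPM (log2FC -0.43, adjusted p = 0.0317), and Arnt had a log2FC of -0.35 (adjusted p = 0.0276). No KI library reached the lowest WT library in any of these 5 genes.

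Hif1a and Egln3, which separated A+ from A- microglia, were not called here (log2FC -0.19, 95% CI -0.43 to 0.06, and -0.42, 95% CI -1.27 to 0.43). Slc16a3 had a log2FC of -0.54 (adjusted p = 0.0772), Slc16a1 of 1.23 (adjusted p = 0.0554) and Slc2a1 of 0.74 (adjusted p = 0.0917), and all 3 were called by DESeq2, which called 20.4% of all genes, and with no filter on low counts. Slc2a1 was 393, 255 and 364 CPM in WT and 314, 627, 755 and 566 CPM in KI (mice 104, 136, 139 and 84). Slc16a1 was 33.9, 33.8 and 42.2 CPM in WT. In KI it was 47.5, 71.2, 167 and 60.5 CPM, above all WT libraries. The endothelial and mural score of these KI libraries was 6.96, 8.20, 8.18 and 7.77 (6.79 to 7.24 in WT). The remaining genes of lower glycolysis and the fate of pyruvate did not pass the test, with log2FC from -0.49 (Pdk1) to 0.24 (Pgk1), Gapdh at -0.03, Ldha at 0.11 and Pkm at 0.10, and the signs of Aldoa, Eno1, Ldhb, Pkm and Slc2a3 turned with scaling by library size only, which moved the median of all genes by -0.11. That scaling moved the share of calls that were higher from 67.9% to 49.9% over all genes.

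Without the 2 KI libraries of lowest microglia score (mice 136 and 139), 4 genes were called: Aldoc, Eno2 and Pfkm higher and Pfkfb3 lower, with 5.81% of all genes called. These 4 were called in each of the alternatives. Without the KI library of mouse 104, 9 genes were called higher and 9 lower, with 33.5% of all genes called, without any one WT library 3 were called higher and 1 lower, and without the KI library of mouse 136, 139 or 84 the number called lower was 2, 1 and 1. Among the 28 HIF targets and regulators 5 rose, against 11.1% of all genes, and 1 fell, against 5.26%. The rises were led by the neuronal HIF partner Arnt2 (log2FC 1.30), the mitochondrial kinase Ak4 (1.23) and Ankrd37 (1.05). Of the 5, Arnt2, Ak4 and Higd1a were called lower in CD11b+ cells than in cortex of A+/Pwt/wt mice, Ndrg1 higher and Ankrd37 neither. Among the 30 neighbouring carbohydrate genes tested, 6 rose, against the same 11.1% of all genes, and 1 fell, against 5.26%. The rises were led by Pdk4 (log2FC 0.91), Bpgm (0.70) and Bsg (0.58), a chaperone of lactate transporters. The gene that fell was Slc16a7, a monocarboxylate transporter (log2FC -0.50). None of the 7 pentose phosphate genes was called.

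**Figure D3:**
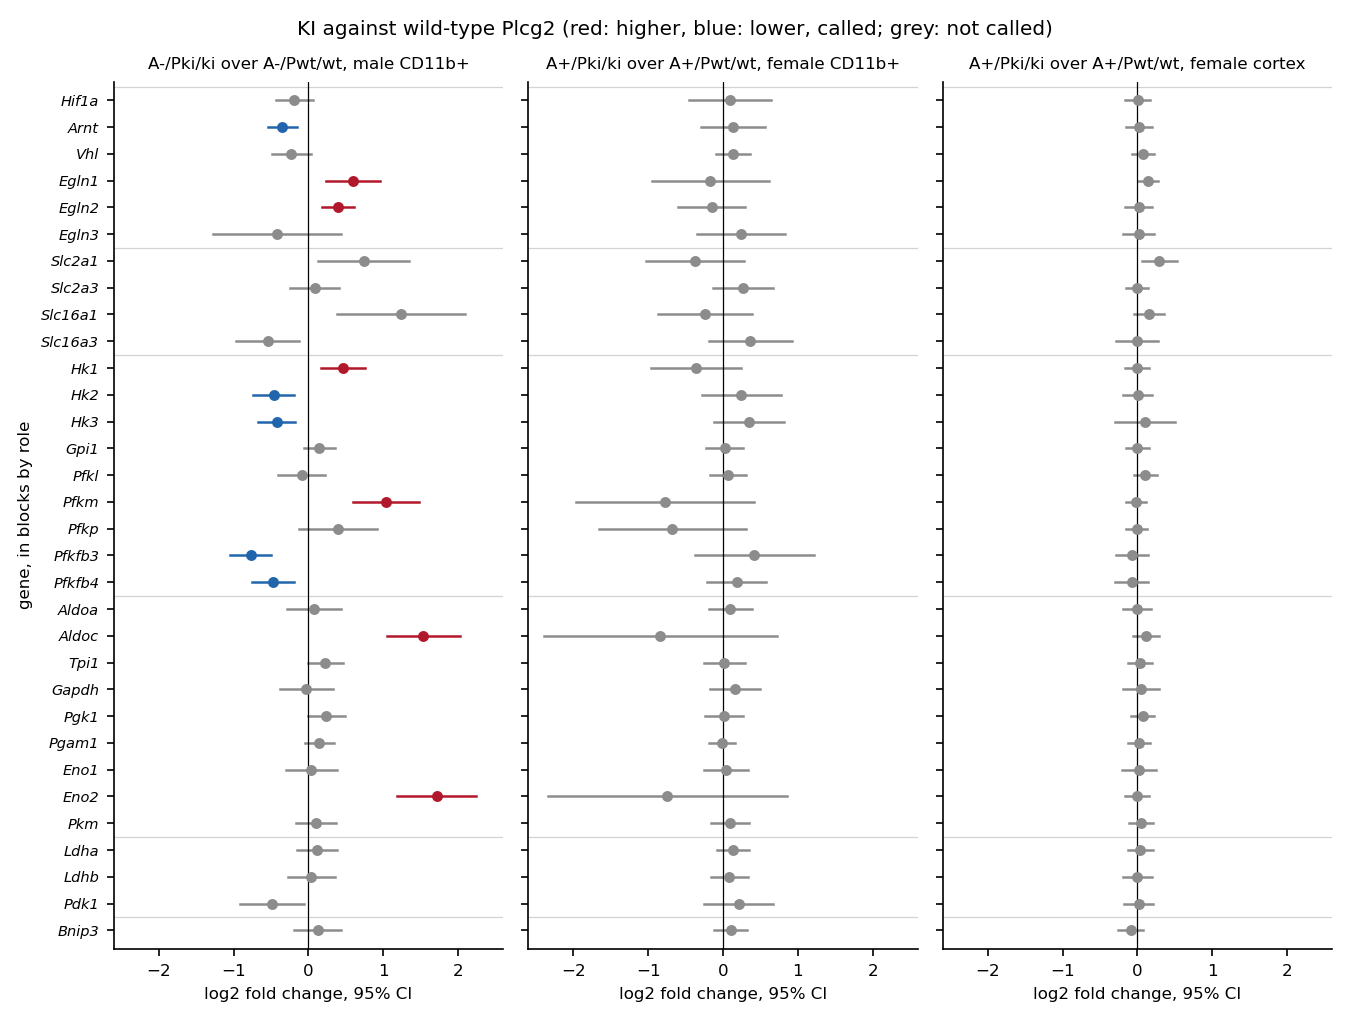
Log2 fold change (x axes) of the 32 genes, in blocks by role (y axis), for the knock-in over wild-type PLCγ2 in male CD11b+ microglia without the transgene (left), female APP/PS1 CD11b+ microglia (middle) and female APP/PS1 cortex (right). Points are edgeR estimates with 95% intervals, red and blue mark genes called higher and lower, grey those not called. The male panel has 6 red and 5 blue genes and the other panels have 0.

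The difference between these knock-in effects was tested directly, as the effect in males without the transgene minus that in APP/PS1 females. Sex, transgene and column tag differ together between the pairs of groups and cannot be told apart. No gene of the list was called (0 of 32, against 0.0% of all 17619 genes), with 13 of 32 at an unadjusted p under 0.05 in edgeR, against 26.5% of all genes. The difference was 2.48 for Eno2 (95% CI 0.67 to 4.28), 2.39 for Aldoc (95% CI 0.65 to 4.13) and -0.75 for Hk3 (95% CI -1.28 to -0.21) on the log2 scale, each with an adjusted p of 0.143. DESeq2 called 2 of 32 genes, Eno2 and Aldoc, against 6.59% of all genes. The count rested on the library of mouse 335, without which 9 genes were called higher and 8 lower, with 35.4% of all genes called. Thus calls in males and none in A+ females do not show that the effects differ.

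To see where the list is expressed, CD11b+ microglia were compared with cortex in female A+/Pwt/wt mice. The samples came from different mice, and RNA was extracted with a column kit from cells and with TRI Reagent from cortex. Higher in CD11b+ were 13 of 32 genes (40.6%), against 37.7% of all genes, and lower were 18 (56.2%), against 40.2%. Only Pfkl, the liver-type phosphofructokinase, was not called. With scaling by library size only, the median of all genes moved by -0.37 and the share of calls that were higher from 48.4% to 37.3%, no gene of the list changed sign, and Vhl lost its call. Of the oxygen sensing genes 5 of 6 were higher in CD11b+ cells, Hif1a with a log2FC of 2.04 and Egln3 with 0.85 and overlapping groups, and Egln2 was lower. All 9 genes from aldolase to pyruvate kinase were lower in CD11b+ cells, and the steps before them were divided, 4 higher and 4 lower of 9.

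The widest gap was at hexokinase. Hk3 was 69.2, 101, 107 and 114 CPM in CD11b+ cells and 3.47, 3.99, 2.22 and 2.83 CPM in cortex (log2FC 5.03 ± 0.222, adjusted p = 8.80e-09, edgeR). Hk2 was 125, 206, 175 and 193 CPM against 7.18, 7.19, 7.60 and 7.44 CPM (log2FC 4.64 ± 0.171, adjusted p = 3.79e-09). Hk1 went the other way (log2FC -1.93). Slc16a3 was 36.7 to 72.7 CPM in CD11b+ cells and 5.41, 6.83, 5.28 and 4.67 CPM in cortex (log2FC 3.38 ± 0.214). Slc2a1 was 538, 273, 370.2 and 279.7 CPM against 54.3 to 74.1 CPM (log2FC 2.63 ± 0.218), and the endothelial and mural score was also higher in CD11b+ libraries, 6.97 to 7.97 against 4.63 to 5.11, with 9 of 9 markers called. The part of endothelial RNA in Slc2a1 was not tested.

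On the cortical side, Eno2 was 54.5, 24.7, 46.8 and 40.8 CPM in CD11b+ cells and 994, 849.5, 944 and 909 CPM in cortex (log2FC -4.41 ± 0.225). Slc2a3 was 13.8 to 17.96 CPM against 130.3, 148, 149 and 149 CPM (log2FC -3.18 ± 0.116). Pfkp was 23.3 to 59.2 CPM against 258, 268, 293 and 275 CPM (log2FC -2.68 ± 0.231), and Pfkm was 129.8, 43.8, 84.8 and 57.3 CPM against 337, 329.6, 341 and 320.3 CPM (log2FC -2.01 ± 0.277). Both tissues separated fully in each of the 4 genes. Of the 6 genes called higher in male KI microglia, 5 (Aldoc, Egln2, Eno2, Hk1 and Pfkm) were lower in CD11b+ cells than in cortex and Egln1 was higher, and the 5 called lower in male KI were all higher in CD11b+ cells. All 12 neuron and all 9 astrocyte markers were likewise higher in male KI and lower in CD11b+ cells than in cortex. The matching share over all genes was not computed, so that these counts do not show whether the pattern is particular to the list.

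Of the context lists, 12 of 28 HIF targets and regulators were higher in CD11b+ cells, among them the heme oxygenase Hmox1 (log2FC 2.77) and the lipid droplet gene Plin2 (2.66), and 8 were lower. Of all genes tested, 37.7% were higher and 40.2% lower. Of 32 neighbouring carbohydrate genes tested 8 were higher, led by the microglial hexose transporter Slc2a5 (log2FC 4.59), and 21 were lower. Of 7 pentose phosphate genes 5 were higher, with Pgd at a log2FC of 2.11, Rpia at 1.32 and G6pdx at 1.06, and 0 were lower.

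**Figure D4:**
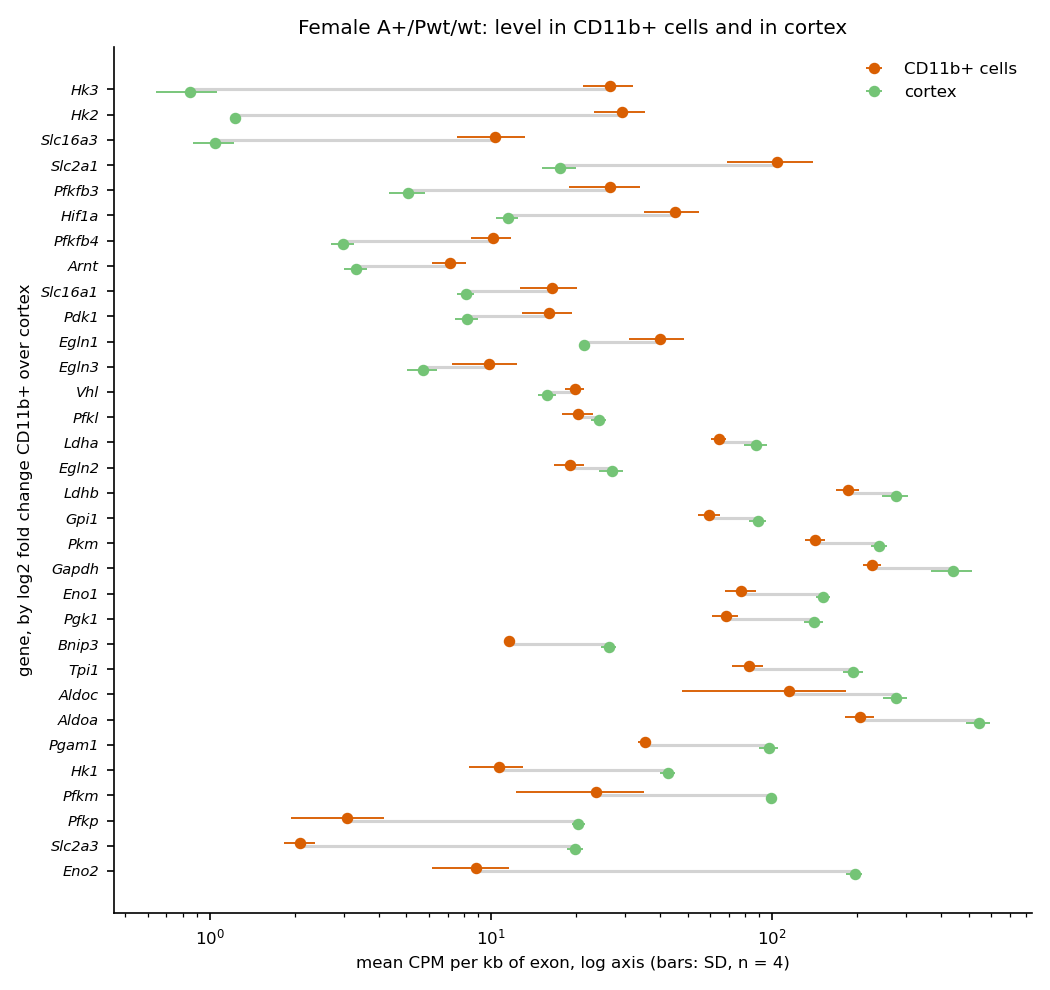
Mean CPM per kb of exon (x axis, log scale, bars SD, n = 4) of the 32 genes in CD11b+ cells and cortex of female A+/Pwt/wt mice, ordered by the log2 fold change between them (y axis). Grey lines join the values of a gene. Hk3 and Hk2 are at the end where CD11b+ is higher and Eno2 and Slc2a3 at the other.

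Levels of different genes were compared per kb of exon. In A+/Pwt/wt CD11b+ cells Gapdh was first with 227 ± 16.6 CPM per kb (SD, n = 4), followed by Aldoa with 205 ± 24.3 and Ldhb with 186 ± 17.4, and neither gap between these 3 exceeds the summed SDs. Pkm was 4th with 142 ± 11.7, a gap to Ldhb larger than both SDs together. Hif1a was 12th with 45.0 ± 9.97 CPM per kb and Egln3 28th with 9.82 ± 2.57, and Slc2a3 was last with 2.09 ± 0.264. In A+/Pwt/wt cortex Aldoa (543 ± 53.2 CPM per kb) and Gapdh (439 ± 72.8) came first, Hif1a was 23rd with 11.4 ± 1.02, and Hk3 was last with 0.849 ± 0.208. The 32 genes together took 0.456 to 0.700% of the counts of CD11b+ libraries and 1.19 to 1.41% of those of cortex libraries. The score of all 32 genes was 6.67 ± 0.141 (SD) in A-/Pwt/wt, 6.94 ± 0.0999 in A+/Pwt/wt and 6.91 ± 0.0966 in A+/Pki/ki CD11b+ cells, 6.53 in male WT and 6.66 in male KI, and 6.95, 6.98 and 7.03 in A-/Pwt/wt, A+/Pwt/wt and A+/Pki/ki cortex.

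Shares of isoforms within a step do not depend on scaling between libraries and were compared by exact permutation of the libraries, on counts per kb. None of 48 tests, 8 shares in 6 comparisons, passed after adjustment, and the smallest adjusted p was 0.0727. In the knock-in comparisons and in CD11b+ against cortex, the smallest p that the permutation test can give is 0.0286. Shares at that value had an adjusted p of 0.137, even without overlap. The lack of a call in those comparisons therefore does not show that the shares were alike. The share of Ldha in Ldha and Ldhb was 17.9 ± 1.52% (SD, range 15.4 to 19.7%, n = 7) in A-/Pwt/wt, 25.8 ± 2.04% (23.8 to 28.6%, n = 4) in A+/Pwt/wt and 26.4 ± 1.19% (25.1 to 27.5%, n = 4) in A+/Pki/ki CD11b+ cells. In both A+ groups all 4 libraries were above all 7 A- libraries (two-sided exact permutation p = 0.00303, the smallest this design can give, adjusted p = 0.0727). The lack of a call therefore does not show that the Ldha shares of A+ and A- cells were alike. In the males the share was 16.5 ± 0.303% in WT and 17.4 ± 1.57% in KI, and in cortex 26.1%, 24.3 ± 1.94% and 24.8 ± 1.94% in A-/Pwt/wt, A+/Pwt/wt and A+/Pki/ki.

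The Hk2 and Hk3 shares of CD11b+ and cortex libraries did not overlap. Hk2 made up 43.8 ± 4.27% and Hk3 39.6 ± 2.69% of hexokinase in A+/Pwt/wt CD11b+ cells, and 2.76 ± 0.171% and 1.90 ± 0.455% in A+/Pwt/wt cortex (exact permutation p = 0.0286 each, adjusted p = 0.137). Eno2 made up 10.1 ± 2.46% of enolase in these CD11b+ cells and 56.4 ± 0.872% in cortex, and Slc2a3 2.14 ± 0.761% and 53.1 ± 3.33% of both glucose transporters. In males, Slc16a3 made up 51.0 ± 3.50% of both lactate transporters in WT and 26.9 ± 13.5% in KI, and Aldoc 22.7 ± 1.98% and 44.7 ± 11.3% of both aldolases (exact permutation p = 0.0571 each, adjusted p = 0.183, with 0.0286 as the smallest p for 3 against 4).

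**Figure D5:**
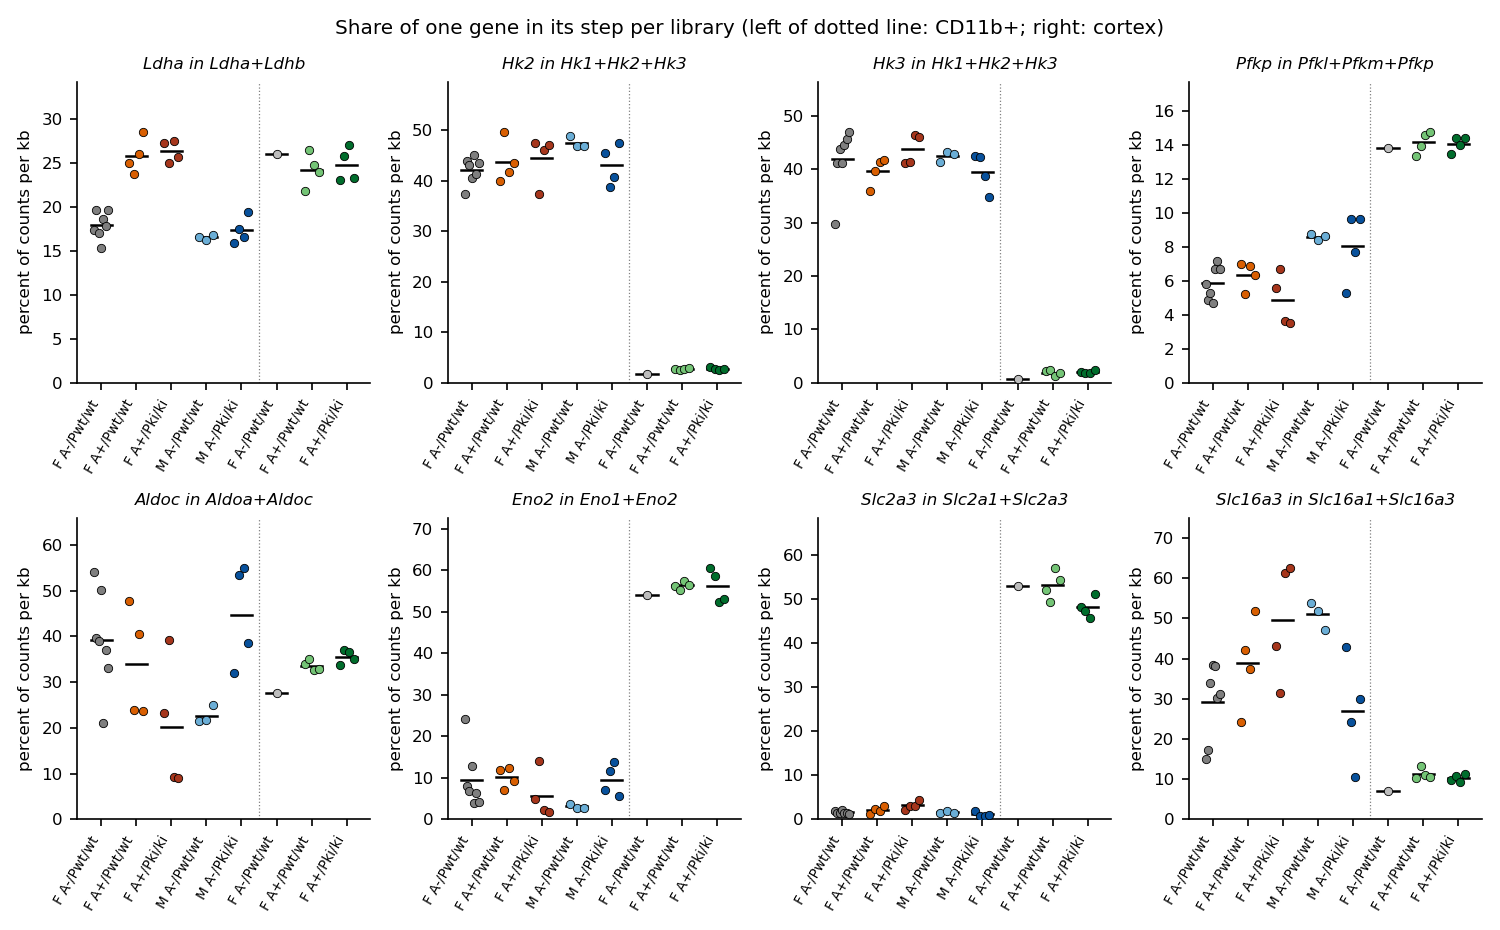
Share of 1 isoform in the counts per kb of its step (y axes, percent, from 0) in each library by group (x axes), for 8 genes. Points are libraries, lines group means, and the dotted line parts CD11b+ (left) from cortex (right). The Ldha share of the 8 A+ CD11b+ libraries, 23.8 to 28.6%, lies above the 15.4 to 19.7% of the female A- libraries.

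Reads of processed copies could be split from their parent genes. Of 19 genes that the tables name after a member, 4 exceeded 1 CPM in any library, Eno1b with up to 23.4 CPM in CD11b+ cells and 44.5 CPM in cortex, Ldhb-ps, Aldoart1 and Pgam1-ps2, so that Eno1 is uncertain to this extent.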

How the data were processed

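Poly(A)-selected RNA was sequenced as paired-end libraries. The authors checked reads with FastQC 0.11.7, trimmed them with Trimmomatic 0.39, aligned them to GRCm38 (Gencode M25) with STAR 2.7.9a and took gene counts from unique primary alignments with featureCounts in R, ignoring strand. The submitters' processing notes give R 4.2.2 and featureCounts 2.12.0 for these libraries, and the study's methods list further versions of both without saying which data each served. These raw counts were deposited. The authors also deposited variance-stabilized log2 values made with DESeq2, which were used for limma only. Uniquely mapped counting loses reads shared with near-identical copies.

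A gene entered a fit when 3 or more of its libraries held 10 or more counts. Counts were TMM-scaled and tested by edgeR 4.0.16 (quasi-likelihood, two-sided, R 4.3.3). P-values were adjusted over all genes of the fit by Benjamini-Hochberg, and 0.05 was the threshold. Alternatives were size factors, library size only, other filters, DESeq2 1.42.0, limma 3.58.1, a fit of all groups and each library left out. The fits were tested on simulated data. Printed CPM were scaled over all 31 libraries, and list scores average log2 CPM over genes (prior count 2). Isoform shares were compared by exact permutation. Exon lengths and positions came from Gencode M21 and promoters from RefSeq. Per-library values were given for Hif1a, for genes called (up to 10 by size in each comparison) or, with none called, the 3 of smallest p, and for the 4 genes most higher and most lower in CD11b+ cells. Values outside this rule were added after they were seen. They were those of Pfkfb3, Ldha, Egln3, Slc16a3 and Pkm and, for males, of Slc2a1 and Slc16a1. Members and lists were chosen with earlier results of these data known. Each library is 1 mouse. The values of 1 gene of the list of HIF targets and regulators are not reported here; it remains in the counts of that list.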

Additional observations from a re-analysis of the deposited data

Results flagged for a closer look

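A total of 174 groups of 4 to 10 libraries were tested for a library far from the others by Dixon's criterion, by which chance alone marks about 1 in 20 (8.7 groups), and 12 were marked. In CD11b+ cells, Egln1 was 94.9 CPM in the lowest A+/Pwt/wt library (next 157 CPM) and Pfkfb4 37.3 CPM in the lowest A+/Pwt/wt library (next 51.9 CPM). In A+/Pki/ki, Egln2 was 69.8 CPM (next 43.6 CPM) and Eno2 68.0 CPM (next 17.0 CPM) in the highest library, and the Hk2 share of hexokinase was 37.3% in the lowest (next 46.2%); these 3 are the library of mouse 335. In female A-/Pwt/wt, Hk1 was 173 CPM (next 106.0 CPM) and Slc2a3 22.9 CPM (next 14.6 CPM) in the highest library and the Hk3 share of hexokinase 29.7% in the lowest (next 41.1%), all in the library of mouse 223. In male KI the Slc2a3 share of both glucose transporters was 1.95% in the highest library (next 0.871%). In cortex, Egln1 was 91.3 CPM in the highest A+/Pki/ki library (next 84.5 CPM), Slc2a3 was 130.3 CPM in the lowest A+/Pwt/wt library (next 148 CPM), and the score of all 32 genes was 7.09 in the highest A+/Pki/ki library (next 7.02). No cause was tested.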

How the results depend on the processing

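No paired analysis was possible because the groups compared share no mouse numbers. The values recomputed for named genes and shares kept their sign, but with scaling by library size only the log2FC of 5 of the 32 genes in male KI and of 7 in the difference of knock-in effects changed sign, and the median of the 32 genes in male KI went from 0.09 to -0.02. For single genes and shares, 492 of 563 alternative values kept direction and side of the threshold, 63 lost and 8 gained a call, and of 277 counts and scores 31 moved by more than 1.5 times (counts) or 1 SD (scores), smaller moves being counted as none. The 563 include genes and shares that were not called in the main fit and had no call to lose. In male KI the call was lost in 9 of 14 alternatives for Hk1, 8 each for Hk2 and Hk3, 7 for Pfkfb4 and 6 each for Egln1 and Egln2. It was lost in 0 of 14 for Eno2, Aldoc, Pfkm and Pfkfb3. Arnt, also called in male KI, is not in these counts. Its call was lost with no filter on low counts and without any one WT library. The same held without KI mouse 139 or 84, and without KI mice 136 and 139 together. In A+/Pki/ki against A-/Pwt/wt the call was lost in 10 of 19 for Pkm and 9 of 19 for Slc16a3, and in 0 for Hif1a and Egln3. The setting without the libraries of lowest microglia score was chosen after seeing the data. It gave 4 genes higher in A+/Pwt/wt (2.8% of all genes called), 8 higher and 2 lower in A+/Pki/ki against A-/Pwt/wt (7.37%), 3 higher and 1 lower in male KI (5.81%), and 4 higher and 5 lower for the difference of knock-in effects (14.7%). In A+/Pki/ki against A-/Pwt/wt, library size only gave 2 higher and no filter 3, DESeq2 size factors and the filterByExpr filter 5 (adding Pfkfb3), and DESeq2 and the fit of all groups 6, adding Pfkfb3 and Ldha. DESeq2 gave 3 higher in A+/Pwt/wt, adding Pkm. In male KI, library size only gave 4 higher and 7 lower (Pdk1 and Slc16a3 newly lower; 3172 of 16373 genes called), no filter 8 higher and 3 lower, and DESeq2 8 higher and 6 lower. For the difference DESeq2 gave 2 higher (6.59% of all genes called). With 1 library left out, genes called higher were 2 to 3 in A+/Pwt/wt and 2 to 7 in A+/Pki/ki (lower 0 to 2), 3 to 9 in male KI (lower 1 to 9) and 0 to 9 for the difference (lower 0 to 8). The cause of these moves was not tested. The limma fit was not run for CD11b+ against cortex or for the difference of knock-in effects, since the tables were normalized separately. All 32 genes passed the count minimum, and groups of 3 to 7 libraries limit the precision.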
